A study of Mus musculus with 179 samples.

Results

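The prefrontal cortex (PFC) of adult female C57Bl6/j mice was compared between animals that met a short course of variable stress in adulthood and animals that did not, all of them raised under early life stress (ELS). The comparison rests on 11 poly-A RNA libraries, 6 of mice given sub-threshold variable stress (STVS) after ELS and 5 of ELS controls, out of 22 female PFC libraries and 163 RNA libraries in the series. Both groups had the same ELS window, postnatal days 10 to 20, so ELS is shared by the stressed mice and their controls. Libraries were chosen by these labels alone, and each was made from 1 mouse, with tissue taken 24 h after behavioural testing. The other 11 female PFC libraries, 6 standard-reared controls and 5 standard-reared STVS mice of the same strain, entered the model to share the estimate of the spread and to test whether the STVS effect differed by rearing. No transgene or allele is given for any group. Labels treat the libraries as separate samples, and p-values measure the spread between them.

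The PFC is built mainly of layered glutamatergic pyramidal neurons with inhibitory interneurons among them, and it governs the appraisal of threat and the shut-off of stress responses. Stress reaches these cells through glucocorticoid receptors, through corticotropin-releasing factor and through monoamine input, and neuronal firing is followed by brief induction of immediate early genes and slower induction of trophic factors such as Bdnf and Vgf. Sub-threshold variable stress is a series of changing stressors too short to alter behaviour in most standard-reared females, and ELS is known to make adult rodents more responsive to later stress. A cortical punch also carries oligodendrocytes of the underlying white matter and cells of the meninges on the pial surface.

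Depth of the 11 libraries ran from 22368310 to 34412776 recovered whole reads. Labels of sex were checked first: Xist, the RNA of the silenced X chromosome, lay between 23280 and 32390 normalised reads and the Y-linked Ddx3y at or under 2.38 in all 11, although the shared protocol text speaks of male tissue. Slc17a7, the vesicular glutamate transporter of cortical pyramidal neurons, lay between 47700 and 57860, the choroid plexus gene Ttr at or under 33.0, and Slc6a3, the dopamine transporter, at or under 5.04. In 1 standard-reared STVS library Xist stood at 166 normalised reads, while Ddx3y was at or under 1.14 in every standard-reared STVS library. Leaving the library low in Xist out gave the same count of 0 genes. In bulk tissue, fewer cells of a type and less RNA per cell cannot be told apart.

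No gene passed in the comparison of STVS with control after ELS. With limma, 0 of the 14000 genes tested (0%) had a Benjamini-Hochberg adjusted p under 0.05, and the lowest adjusted p was 0.999. An unadjusted p under 0.05 was reached by 455 genes (3.25%), of which 240 were higher (1.71%) and 215 lower (1.54%) after STVS, where 5% of the genes tested would be 700. The count tests on the recovered whole reads also called 0 genes, with 453 genes at an unadjusted p under 0.05 in edgeR and 483 in DESeq2. Precision was set by the spread between mice: the 95% interval of a fold change reached a median of 0.14 to either side on the log2 scale, 0.28 for genes of 50 to 200 normalised reads and 0.11 for genes of at least 1000. A log2 fold change over 0.5 in size was seen in 48 genes, and the median of all genes was -0.01. Of all genes, 45.8% were above 0 and 54.2% below. Directions and sizes below are therefore descriptions of these mice, given with the standard error (SE) of the limma fit, and the adjusted p of each of the 24 genes of smallest p was 0.999.

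**Figure D1:**
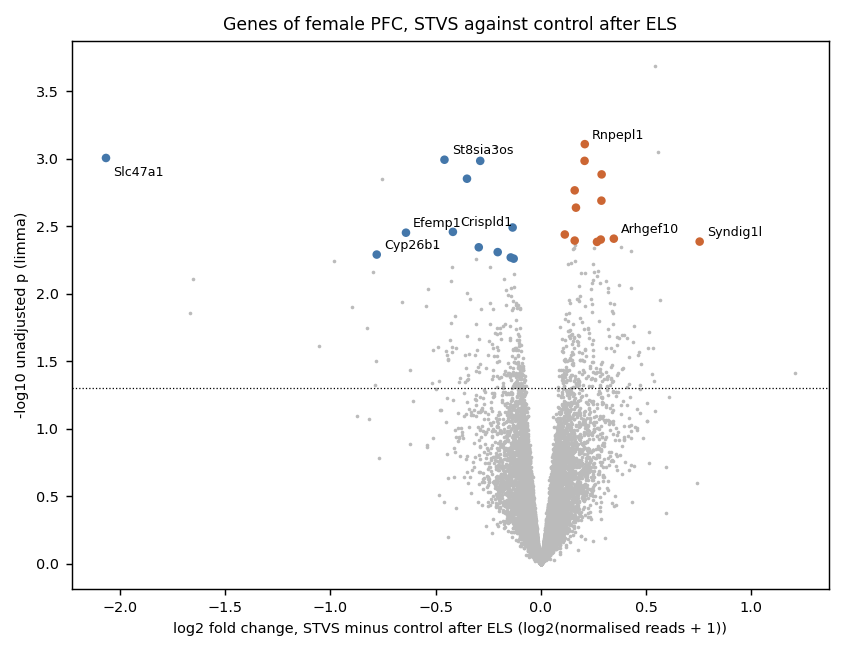
Each grey point is 1 of the 14000 genes, by log2 fold change of STVS against control after ELS (x axis) and by -log10 of the unadjusted limma p (y axis), with the dotted line at 0.05. Coloured points are the 12 higher (orange) and 12 lower (blue) genes of smallest p with a mean of at least 50 normalised reads, and Slc47a1 stands far to the left at -2.07.

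Among the lower genes the largest log2 fold changes were those of Slc47a1, Ogn, Prg4 and Ptgds, of which Ptgds is one of the listed markers of mural and meningeal cells. Slc47a1, a transporter that exports organic cations, read 81.7, 34.5, 163.9, 62.5 and 53.7 normalised reads in the 5 ELS controls and between 5.93 and 26.6 (median 16.2) in the 6 STVS libraries. Every STVS library lay below every control. The log2 fold change was -2.07 (SE 0.54, 95% interval -3.19 to -0.95), and it stayed between -2.31 and -1.76 whichever of the 11 libraries was left out. Standard-reared mice spanned almost the whole of this range, from 15.2 to 150.6 in the controls and from 29.7 to 114.6 after STVS, and the lowest standard control lay inside the range of the ELS STVS mice.

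A log2 fold change over 1 in size was found in 5 genes, and 4 of them, Slc47a1, Ogn, Prg4 and Ptgds, were lower. Ogn and Prg4 were named after their values were seen. Ogn encodes osteoglycin, a small proteoglycan of connective tissue, and read 117.8, 71.4, 253.1, 182.5 and 49.6 normalised reads in the controls against 19.0 to 55.6 (median 39.4) after STVS. Its log2 fold change was -1.67 (SE 0.61), and control 5 lay inside the STVS range. Prg4, the lubricating proteoglycan lubricin, read 105.8, 34.5, 157.6, 116.0 and 47.5 in the controls against 16.6 to 30.4 (median 25.1), with no overlap and a log2 fold change of -1.65 (SE 0.56). Ptgds, the prostaglandin D synthase made by the leptomeninges, read 7036, 4505, 10770, 8725 and 3374 in the controls against 2401 to 3784 (median 3089). Control 5 lay inside the STVS range, and the log2 fold change was -1.05 (SE 0.43). In normalised reads the controls had a larger SD than the STVS mice in all 4 genes (50.25 against 7.40 in Slc47a1), with control 3 highest in all 4. On the log2 scale of the fit, the STVS libraries of Slc47a1 also spread widely, from 5.93 to 26.6 normalised reads.

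Other lower genes had smaller folds. Efemp1, an extracellular matrix glycoprotein, read 230.2, 189.2, 294.5, 203.7 and 221.0 in the controls and 119.2 to 167.9 (median 143.2) after STVS, without overlap (log2 fold change -0.64, SE 0.20). Cyp26b1, which degrades retinoic acid, read 158.0, 104.7, 104.7, 211.7 and 56.8 against 58.7 to 74.2 (median 66.5), where control 5 lay below all 6 STVS libraries and the other 4 controls above them (log2 fold change -0.78, SE 0.25). Crispld1, a secreted protein with a cysteine-rich domain, read 111.1, 92.8, 114.1, 120.0 and 108.4 against 72.3 to 102.7 (median 79.1), where STVS library 4 overlapped the controls (log2 fold change -0.42, SE 0.13). Of the 18 members of the list of mural and meningeal markers, 12 were below 0 and 6 above, beside 54.2% and 45.8% of all genes. At an unadjusted p under 0.05, 1 member, Ptgds, was lower, beside 1.54% of all genes. The median log2 fold change of the list was -0.19, beside -0.01 for all genes. The negative end held fibroblast and leptomeningeal genes, Col3a1 (-0.62), Col1a1 (-0.61), Aldh1a2 (-0.51), Slc6a13 (-0.37) and Igf2 (-0.30). Genes of vascular muscle and pericytes were near 0 or above it, Pdgfrb at 0.01, Myh11 at 0.07 and Acta2 at 0.16. The summed level of the list was 12000 to 21740 normalised reads in the controls and 10660 to 14000 after STVS. Its median was -0.06 without control 3, the highest of the leave-one-out values, and -0.27 without control 5, the lowest. The part of meningeal tissue in the punch in these differences was not tested.

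**Figure D2:**
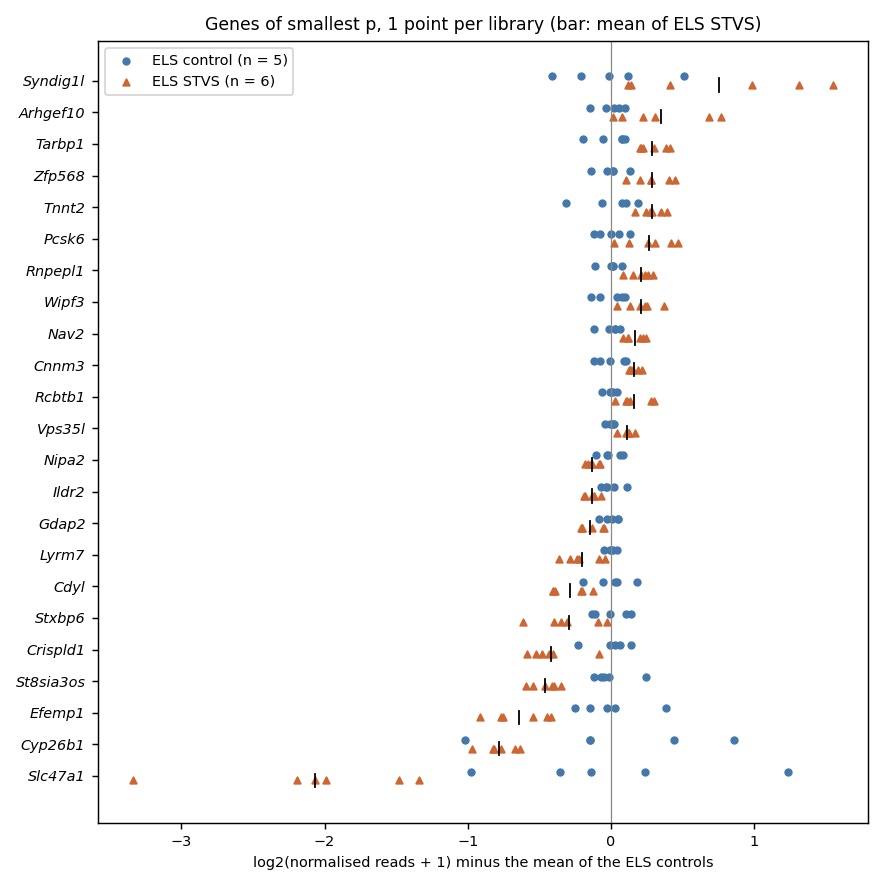
Each row is 1 of the genes of smallest p named in the text, and each point is 1 library, as log2(normalised reads + 1) minus the mean of the ELS controls (x axis), with circles for the 5 controls, triangles for the 6 STVS libraries and a bar at the STVS mean. Groups did not overlap in 8 of the genes shown, all picked for small p. Every STVS library lay above every control in 0.129% of all genes, and below in 0.179%. Slc47a1 shows a wide spread in both groups, and Cyp26b1 among the controls.

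Oligodendrocyte genes had the highest list median, with 3 of the 6 STVS mice standing high. All 16 members of the list of mature oligodendrocyte and myelin genes had a positive log2 fold change, from 0.19 to 0.61 with a median of 0.43, where 45.8% of all genes were above 0. At an unadjusted p under 0.05, 1 of them, Myrf, was higher, beside 1.71% of all genes. Myrf, the transcription factor that switches on myelin genes, read 597.0, 748.5, 631.6, 562.6 and 878.8 normalised reads in the controls and from 610.8 to 1546 (median 916.8) after STVS. STVS libraries 2 (1546), 6 (1367) and 1 (1026) stood above every control, and the other 3 lay between 610.8 and 807.2, inside the control range. The log2 fold change of Myrf was 0.48 (SE 0.21). Mobp, a protein of compact myelin, had the largest value of the list at 0.61 (SE 0.30). The summed level of the list was 47390 to 69790 in the controls and 46480 to 146000 after STVS.

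Without STVS libraries 2 and 6, a choice made after seeing the data, the median of the myelin list was 0.04 instead of 0.43 (0.25 without library 2 alone), with 11 of 16 members above 0 and none at an unadjusted p under 0.05. Sox10, which specifies the oligodendrocyte lineage, read 704.1, 734.2, 716.6, 613.1 and 842.6 in the controls and 688.7 to 1266 (median 864.1) after STVS. Its log2 fold change was 0.32 (SE 0.13) with all libraries and 0.12 without those 2. The precursor list, which holds Sox10, had 10 of 11 members above 0, beside 45.8% of all genes, and a median of 0.11. Pdgfra, the receptor that defines precursors, was at 0.02. Hapln2, a link protein of the nodes of Ranvier, was at 0.51 (SE 0.21) and at 0.20 without the 2 libraries.

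The same libraries were highest in 4 of the 12 named higher genes. Syndig1l, a membrane protein related to the synapse protein SynDIG1, read 50.9, 55.9, 73.6, 38.3 and 44.4 in the controls and 55.9 to 152.8 (median 85.8) after STVS, with STVS libraries 2, 6 and 1 highest. Its log2 fold change was 0.76 (SE 0.24) with all libraries and 0.42 without libraries 2 and 6. Arhgef10, a guanine nucleotide exchange factor, was at 0.35 (SE 0.11) with all libraries and 0.16 without them. Pcsk6, a proprotein convertase, was at 0.27 (SE 0.08) and 0.18, and Rcbtb1, a BTB-domain protein, at 0.16 (SE 0.05) and 0.10. The other 20 of the 24 named genes, which were all chosen for small p with those libraries included, kept an unadjusted p under 0.05 in that fit. Thbs4, a secreted thrombospondin and the one gene with a log2 fold change above 1, was named after its values were seen: it read 13.4, 61.9, 24.9, 18.2 and 21.7 in the controls and 19.3 to 282.5 (median 56.9) after STVS. Its value was 1.21 (SE 0.55) with all libraries and 0.42 without libraries 2 and 6, whose readings were 282.5 and 105.5.

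The remaining higher genes had small folds and tight groups. Rnpepl1, an aminopeptidase-like enzyme, read 898.2, 894.9, 935.5, 820.8 and 889.1 in the controls and 940.8 to 1089 (median 1038) after STVS, without overlap. It had the smallest p of the named genes (log2 fold change 0.21, SE 0.05). Tarbp1, a methyltransferase of tRNA, read 243.6, 267.7, 271.7, 268.2 and 221.0 against 291.7 to 337.8 (median 304.8), again without overlap (log2 fold change 0.29, SE 0.08). Nav2, a neuron navigator protein that binds the cytoskeleton, read 2274 to 2575 in the controls and 2607 to 2919 after STVS (log2 fold change 0.17, SE 0.05). Cnnm3, a membrane protein of the cyclin M family, read 904.9 to 1059 and 1071 to 1142 (0.16, SE 0.05), and Vps35l, a subunit of the retriever complex that recycles membrane proteins, 1474 to 1542 and 1563 to 1702 (0.11, SE 0.04). These 5 genes are all of the 12 higher genes whose groups did not overlap. Across the 14000 genes, every STVS library lay above every control in 18 (0.129%) and below every control in 25 (0.179%). In Wipf3, which binds the actin regulator WASP, Zfp568, a KRAB zinc finger repressor, and Tnnt2, cardiac troponin T, the groups overlapped, with log2 fold changes of 0.21, 0.29 and 0.28.

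Among the lower genes, St8sia3os, a transcript named for lying opposite the sialyltransferase gene St8sia3, read 60.2, 75.0, 58.1, 62.5 and 60.9 against 41.5 to 49.4 (median 46.4), without overlap (log2 fold change -0.46, SE 0.12). The kit kept no strand, so reads of the gene on the other strand cannot be told apart from it. Cdyl, a chromodomain protein that acts as a co-repressor, read 302.5, 282.0, 298.7, 256.1 and 332.5 against 221.0 to 269.2 (median 239.0), where control 4 overlapped the STVS mice (log2 fold change -0.29, SE 0.08). Stxbp6, which binds SNARE proteins, read 2973 to 3585 in the controls and 2128 to 3198 after STVS (-0.29, SE 0.09). Lyrm7, an assembly factor of respiratory complex III, was at -0.20 (SE 0.07). Ildr2, a membrane protein of the immunoglobulin family, Gdap2 and the magnesium transporter gene Nipa2 differed by -0.13, -0.14 and -0.13. All 24 named genes had an unadjusted p under 0.05 whichever of the 11 libraries was left out. They were chosen for the smallest p in these same libraries, so the choice largely fixed that outcome, and no conclusion is drawn from it.

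Genes regulated by neuronal activity were mixed, with most estimates for trophic factors below 0. Of 8 neurotrophic factors and receptors tested, 7 were below 0, beside 54.2% of all genes, with a median log2 fold change of -0.11. At an unadjusted p under 0.05, 3 of them, Bdnf, Nrn1 and Vgf, were lower, beside 1.54% of all genes. Without STVS libraries 2 and 6, 1 of the 3, Bdnf, was at an unadjusted p under 0.05 (log2 fold changes -0.26 for Bdnf, -0.16 for Nrn1 and -0.15 for Vgf). Vgf, the precursor of secreted neuropeptides that Bdnf induces, read 11400, 8998, 10500, 8293 and 10320 normalised reads in the controls and 7695 to 10260 (median 8313) after STVS. The groups overlapped, with STVS libraries 5 (10260), 3 (9011) and 1 (8504) above control 4 (log2 fold change -0.21, SE 0.08). Nrn1, the activity-induced neuritin of axons and dendrites, read 6613, 4747, 5820, 4570 and 6510 against 4292 to 5602 (median 4743), at -0.21 (SE 0.10). Bdnf, the ligand of the TrkB receptor, read 1630, 1361, 1386, 1162 and 1198 against 977.9 to 1473 (median 1126), at -0.23 (SE 0.10). Ntrk2, which encodes TrkB, was at -0.03. Adcyap1, the stress-related neuropeptide PACAP of excitatory neurons, read 1111, 1177, 1129, 1111 and 1112 in the controls and 884.5 to 1076 (median 931.9) after STVS. Every STVS library was below every control, and the log2 fold change was -0.24 (SE 0.08).

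Homer1, the postsynaptic scaffold whose short form is an immediate early product, read 7752, 8825, 6803, 7051 and 8010 in the controls and 5043 to 7553 (median 6452) after STVS, at -0.26 (SE 0.12). The list of 26 immediate early genes divided evenly, with 13 members above 0 and 13 below, and a median of 0.01. Homer1 and Bdnf were the 2 at an unadjusted p under 0.05, both lower, beside 1.54% of all genes. Fos, the classical mark of recent firing, read 1185, 1045, 1238, 1650 and 377.9 in the controls and 277.8 to 2055 (median 1460) after STVS, so that both groups held low libraries, control 5 and STVS libraries 4 and 2. The log2 fold change of Fos was 0.09 (SE 0.47, 95% interval -0.90 to 1.08), and it was -0.26 without control 5 and 0.47 without STVS library 4. Leaving out control 5 moved the median of the list to -0.16, and leaving out STVS library 4 moved it to 0.17.

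The 100 bases before the annotated starts of Homer1, Adcyap1 and Bdnf, picked from the lower genes, are shown from RefSeq (GRCm38.p6, plus strand, 5′ to 3′). Shown is the start of each gene that holds TGACG, the core motif of the cAMP response element, on either strand. The immediate early list as a whole went both ways, with 13 members above 0 and 13 below, and a shared regulator was not tested. Capitals mark that core motif. Homer1 lies at chr13:93303657-93303756, Adcyap1 at chr17:93198917-93199016 and Bdnf at chr2:109692336-109692435.
Homer1: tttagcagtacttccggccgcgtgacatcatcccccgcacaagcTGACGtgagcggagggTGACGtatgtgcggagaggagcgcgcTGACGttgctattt
Adcyap1: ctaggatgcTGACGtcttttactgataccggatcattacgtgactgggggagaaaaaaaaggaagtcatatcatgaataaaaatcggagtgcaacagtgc
Bdnf: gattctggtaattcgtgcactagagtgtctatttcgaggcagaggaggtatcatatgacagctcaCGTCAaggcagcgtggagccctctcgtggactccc
Homer1 carries 3 core motifs in this window, Adcyap1 1 and Bdnf 1, the last on the opposite strand. The table lists 2 starts for Homer1, 2 for Adcyap1 and 7 for Bdnf, and in each gene 1 start holds the core motif. Of 32851 promoter windows of this length, 10.5% hold TGACG on either strand, and 10 of the 71 windows of the genes named here do. The full element TGACGTCA, which contains the core motif, was in 1.15% of all windows and in none of the 71. Windows were found for 50 of the 74 named genes. Vgf and Nrn1 were among those without a window, so they were not searched. These letters describe the sequence and not a bound site.

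Genes of receptors and of stress hormones follow, with none passing the adjusted test. Among 12 GABA-A receptor subunits, 9 were below 0, beside 54.2% of all genes, with a median of -0.07, which was -0.02 without control 5. Gabra2, the alpha 2 subunit of synapses on pyramidal cells, was lowest at -0.14 (SE 0.06, 1171 to 1498 normalised reads in the controls and 1122 to 1274 after STVS). The 10 NMDA and AMPA receptor subunits had a median of -0.05 (-0.005 without control 5) and none at an unadjusted p under 0.05, with Grin2b at -0.12 and Gria1 at 0.04. Of 19 monoamine receptors, Htr1a, the inhibitory serotonin receptor of pyramidal neurons, was at -0.21 (SE 0.09), reading 627.8, 618.8, 629.5, 619.1 and 761.1 in the controls and 506.7 to 664.8 (median 549.0) after STVS. Control 5 stood apart at 761.1, and without it the value was -0.15. Htr4, an excitatory serotonin receptor, was at 0.42 (SE 0.24).

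In the list of steroid receptors and the CRF system, 4 of 11 genes were above 0 and 7 below, beside 45.8% and 54.2% of all genes. Srd5a1, the 5-alpha-reductase that makes neurosteroids, read 180.7, 336.8, 272.8, 309.6 and 245.8 in the controls and 294.9 to 373.3 (median 323.0) after STVS, at 0.32 (SE 0.11). Control 1 was the lowest library, and without it the value was 0.18. Nr3c1, the glucocorticoid receptor, was at -0.08 and Crh, corticotropin-releasing hormone, at -0.22 (SE 0.13). The 19 glucocorticoid-responsive genes tested had a median of 0.02 and none at an unadjusted p under 0.05. Fkbp5, the chaperone that reports glucocorticoid receptor activity, was at -0.02, Sgk1 at 0.07 and Tsc22d3 at 0.06.

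All 24 cytosolic ribosomal protein genes were above 0, beside 45.8% of all genes, between 0.01 and 0.09 with a median of 0.04. That median was 0.02 without STVS library 5 and 0.08 without control 1. Of 26 chaperones of the cytosol and endoplasmic reticulum, 25 were below 0, beside 54.2% of all genes, with a median of -0.06. None in either list reached an unadjusted p under 0.05, and the members of such lists vary together from library to library. The chaperone median was -0.09 without control 3 and -0.04 without control 2, the ends of its range with 1 library left out. Of 26 histone and DNA methylation enzymes, 22 were above 0, beside 45.8% of all genes. Their median of 0.03 was 0.005 without control 1, and without STVS libraries 2 and 6 the count above 0 was 13 of 26. Ezh2, the methyltransferase of the Polycomb complex, was highest at 0.22 (SE 0.11). Among 14 interferon response genes with a median of 0.05 (0.02 without control 5), Irf7, the master regulator of type I interferon, read 37.5, 51.2, 48.7, 42.4 and 78.5 in the controls and 57.3 to 78.7 (median 69.7) after STVS, at 0.47 (SE 0.20). Control 5 alone reached the STVS range. Clock genes had a median of -0.03, oxidative phosphorylation genes -0.01 and cholesterol synthesis genes -0.01. The layer 4 transcription factor gene Rorb was at -0.20 (SE 0.09).

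**Figure D3:**
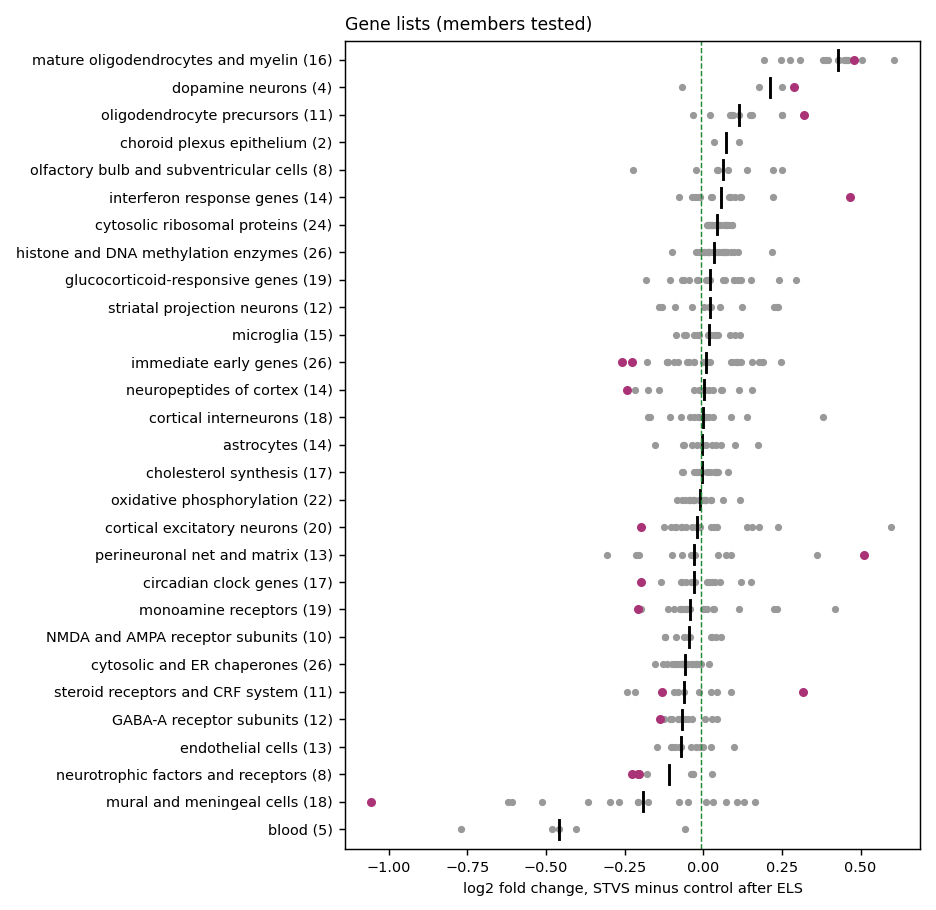
Each row is 1 gene list with the number of members tested, each point is 1 member by log2 fold change of STVS against control after ELS (x axis), magenta points have an unadjusted limma p under 0.05, the black bar is the list median and the dashed line the median of all genes. The myelin list lies wholly right of 0 with a median of 0.43, and the 5 blood genes lie left of it with a median of -0.46.

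Markers of the other cell types in the punch lay near the median of all genes. Medians were -0.02 for 20 genes of cortical excitatory neurons, 0.00 for 18 of interneurons, 0.00 for 14 of astrocytes, 0.02 for 15 of microglia and -0.07 for 13 of endothelial cells. Rorb was the only member of these 5 lists at an unadjusted p under 0.05, beside 3.25% of all genes. The 5 blood genes were all below 0, beside 54.2% of all genes, with a median of -0.46 and none at an unadjusted p under 0.05. Without control 1 the median of the blood genes was -0.26. Their summed level was 722 to 1653 normalised reads in the controls and 491.6 to 1008 after STVS. Among markers of other regions, the 12 striatal genes had a median of 0.02 and the 8 olfactory bulb and subventricular genes 0.06. The 4 dopamine neuron genes tested had a median of 0.21 (0.07 without control 5), with 3 above 0, beside 45.8% of all genes. In that list 1 gene, Ddc, was higher at an unadjusted p under 0.05, beside 1.71% of all genes. The 2 choroid plexus genes tested had a median of 0.07, while the defining choroid plexus gene Folr1 read 0 to 5.35. Neuropeptides of cortex had a median of 0.00 over 14 genes, and genes of the perineuronal net and matrix -0.03 over 13.

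**Figure D4:**
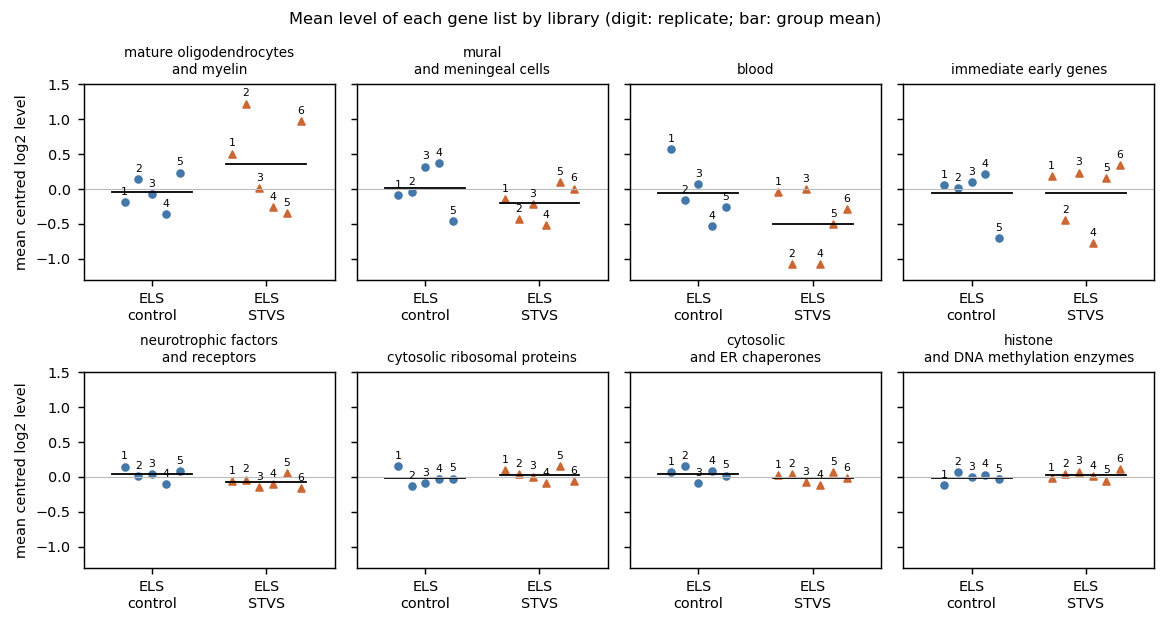
Each panel shows 1 gene list, with each point the mean over its genes of the log2 level centred on the 22 libraries (y axis), labelled by replicate, and a bar at the group mean. STVS libraries 2 (1.22), 6 (0.98) and 1 (0.51) stand high in the myelin list, and control 5 (-0.70) and STVS libraries 2 (-0.45) and 4 (-0.77) stand low in the immediate early genes.

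The STVS effect after ELS was then compared with the STVS effect after standard rearing, in the same model. With limma, 0 of 14000 genes (0%) passed the test of the difference at an adjusted p under 0.05, with a lowest adjusted p of 0.584. At an unadjusted p under 0.05 there were 1108 genes (7.91%), of which 454 were higher and 654 lower after ELS than after standard rearing. Across all 14000 genes the 2 effects, which share no library, had the same sign in 38.0%, and in 29.0% of the 455 genes at an unadjusted p under 0.05 after ELS. Without the standard STVS library low in Xist, 0 genes passed and 1031 had an unadjusted p under 0.05. The medians of all genes were -0.01 for the effect after ELS and 0.02 for the effect after standard rearing.

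For this difference 6 genes were named for the smallest p, and since the test chose them, the signs of their effects are a description. Bnip3, a mitochondrial protein induced by low oxygen that drives mitophagy, read 3645, 3575, 3606, 3641 and 4107 in the ELS controls and 3162 to 3718 (median 3384) in the ELS STVS mice. In standard-reared mice it read 3103 to 3554 in controls and 3681 to 3913 after STVS, without overlap. The effects were -0.12 after ELS and 0.19 after standard rearing, a difference of -0.30 (SE 0.07, adjusted p = 0.584, limma). Atf4, the transcription factor of the integrated stress response, read 3407 to 3479 in the ELS controls and 3174 to 3483 after STVS, beside 3123 to 3314 and 3406 to 3639 after standard rearing. Its difference was -0.20 (SE 0.05), with -0.06 after ELS and 0.13 after standard rearing. Nipa2 had effects of -0.13 and 0.12, a difference of -0.25 (SE 0.06).

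On the positive side, Cfap46, a protein of the ciliary axoneme, read 66.9, 72.6, 86.1, 77.6 and 79.5 in the ELS controls and 81.9 to 103.4 (median 96.2) in the ELS STVS mice, beside 80.5 to 113.6 and 63.9 to 90.7 after standard rearing. The difference was 0.69 (SE 0.15), made of 0.31 after ELS and -0.39 after standard rearing. Tarbp1 differed by 0.48 (SE 0.11) and Mfsd10, a membrane transporter, by 0.37 (SE 0.09). Of the activity-regulated genes described above, Nrn1 had a difference of -0.42 (SE 0.14), Bdnf of -0.42 (SE 0.15), Vgf of -0.31 (SE 0.11) and Homer1 of -0.45 (SE 0.16), values that contain the effects after ELS for which these 4 were named. The difference was -0.17 for Fos, whose effect after ELS was 0.09. Slc47a1 differed by -2.30 (SE 0.76), with -2.07 after ELS and 0.235 after standard rearing. It too was named for its effect after ELS, which this value contains.

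**Figure D5:**
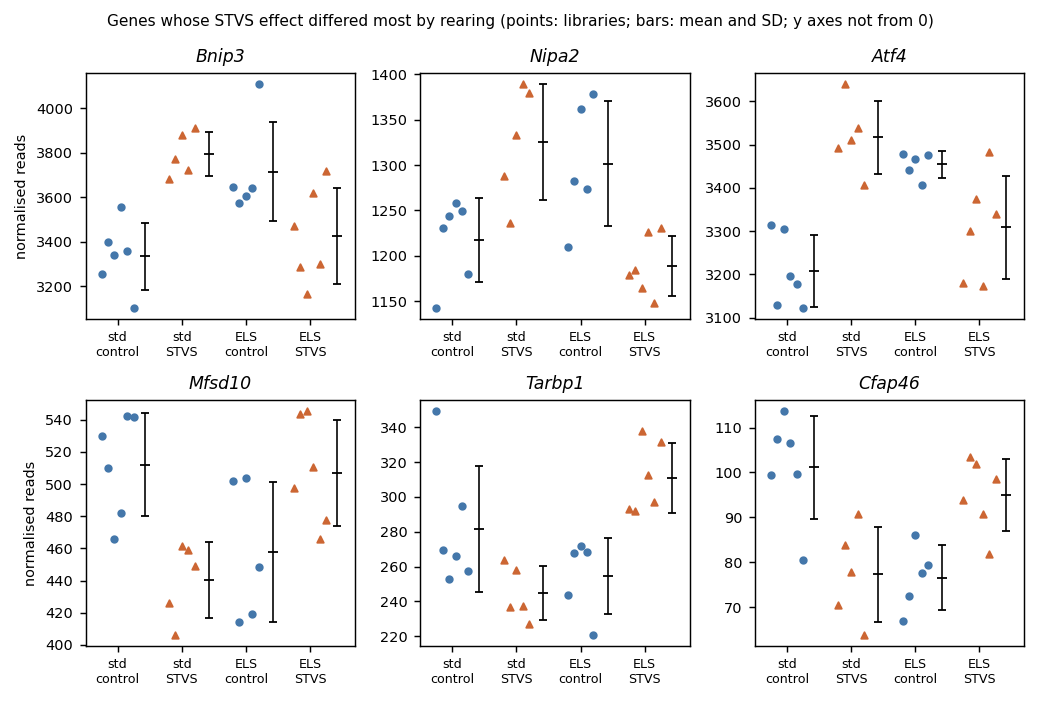
Normalised reads (y axes, not from 0) of the 6 genes whose STVS effect differed most by rearing, with 1 point per library in the 4 groups of female PFC (std, standard rearing; circles, controls; triangles, STVS) and bars for the mean and SD. In Bnip3 the standard STVS libraries lie above their controls, and the ELS STVS mean of 3425 lies below the ELS control mean of 3715.

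Comparisons in another region and in the other sex, which share no library with this one, are set beside it, without a test between them. Libraries of the other region may come from the same females as the PFC libraries, so independent animals cannot be assumed there. In the ventral tegmental area (VTA) of females given STVS after ELS, 0 genes passed and 187 had an unadjusted p under 0.05, and in the PFC of males given social defeat after ELS, 0 passed and 2337 did. Of the 24 named genes, 15 of the 23 tested had the same sign in female VTA, beside 57.4% of all genes, with none at an unadjusted p under 0.05, beside 1.34%. In male PFC 10 of 24 had the same sign, beside 52.5% of all genes, with 5 at an unadjusted p under 0.05, beside 16.7%, shares near the background. The lowest genes of female PFC had the opposite sign in male PFC: Slc47a1 was at 1.39 (SE 0.45), Ogn at 1.21 (SE 0.49), Prg4 at 1.38 (SE 0.50), Ptgds at 1.08 (SE 0.41), Col1a1 at 1.02 (SE 0.33) and the whole mural and meningeal list at a median of 0.36. In female VTA Slc47a1 was also above 0, at 0.79 (SE 0.57), as were Prg4 at 0.64 (SE 0.40) and Ogn at 0.30 (SE 0.35). Ptgds was at -0.03 there and Col1a1 at -0.05. The mural and meningeal list had a median of -0.04 in female VTA and the myelin list -0.08. Blood genes had a median of 1.47 in male PFC. Adcyap1 was at -0.12 in female VTA and 0.10 in male PFC, and Vgf at 0.07 and 0.10. Bdnf was at -0.25 (SE 0.20) in female VTA and -0.04 in male PFC. Nrn1 was at -0.19 (SE 0.22) and 0.19, and Homer1 at -0.05 and -0.24.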

How the data were processed

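Poly-A RNA of female PFC was sequenced with an unstranded TruSeq kit, per the labels' protocols. The authors deposited a signal in normalised reads, gene counts scaled by a single factor in each library. Per the submitters' processing notes, HISAT and HTSeq were used with mm10, and no versions are stated there. No source used here says how the factors were made. Dividing each value by the smallest step in its library returned whole reads for 100% of positive values (68 libraries, tolerance 0.001 reads) and thereby the depth, 22368310 to 34412776 reads in the 11 ELS libraries. Of 32421 gene IDs, 27164 had a symbol. All 50 pairs of libraries within a female PFC group differed by more than sampling noise (lowest chi-square per gene 2.96), so none was merged.

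The 14000 genes of highest mean (at least 36.1 normalised reads) entered limma 3.58.1 under R 4.3.3, with a mean-variance trend and robust moderation, as log2(value + 1). Each of the 4 female PFC groups had its own coefficient. Fold changes are on that scale, which understates the change of low genes. Benjamini-Hochberg adjusted p under 0.05 counted as a call. The rule named, where fewer than 5 genes passed, 12 higher and 12 lower genes, those of smallest p with a mean of at least 50 normalised reads, leaving out predicted genes, up to 4 members of smallest p of each list, and 3 genes on each side for the difference by rearing. The comparison, the 29 gene lists and the rule were chosen with earlier results of these data known. Alternatives were edgeR 4.0.16 and DESeq2 1.42.0 on the recovered whole reads, quantile normalisation, log2(value + 5), no filter, only the 11 ELS libraries, 2 surrogate variables (sva 3.50.0), a replicate block, leaving out each library, and, chosen after seeing the data, leaving out STVS libraries 2 and 6. The fit was first run on simulated counts drawn independently for each gene, unlike gene lists whose members vary together. No conclusion is drawn from that run here. Promoter sequences are from RefSeq (GRCm38.p6), with 50 of 74 named genes matched. The 16 chromatin and input libraries were left out. Some genes that the rule names are not reported here, although they stay in the counts.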

Additional observations from a re-analysis of the deposited data

Results flagged for a closer look

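In each group the gap between the highest or lowest library and its nearest neighbour was divided by the range of the group, on the log2 scale, for the named genes and the gene list means. Of 198 groups examined 11 exceeded the 95% critical value, and chance flags about 1 in 20. Control 5 stood apart most often. It was high in Htr1a (0.917), Foxp1 (0.809) and Gria4 (0.807) and low in the list means of immediate early genes (0.79) and of olfactory bulb and subventricular cells (0.738). Control 2 was high in Adcyap1 (0.715) and St8sia3os (0.712). STVS library 4 was high in Crispld1 (0.64) and low in Sall1 (0.653), a microglial transcription factor. STVS library 3 was low in Prg4 (0.656), and STVS library 2 was high in the list mean of striatal projection neurons (0.832). The causes were not tested.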

How the results depend on the processing

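Under every alternative run, 0 genes passed in either comparison. The count at an unadjusted p under 0.05 after ELS was 455 as reported, 1181 with no filter on low values (more genes tested), 1282 with 2 surrogate variables and 276 without STVS libraries 2 and 6. It ran from 322 (without STVS library 1) to 705 (without STVS library 5) with 1 library left out. For the difference by rearing the count of 1108 became 2002 with no filter and ran from 724 (without ELS control 5) to 1515 (without ELS control 2). Where a value moved, the cause was not tested unless named. The deviations of same-numbered libraries had correlations of 0.158, 0.35, 0.11, 0.063 and 0.176, not all above 0.1, so pairing by number was not established, and 3 of the 5 controls correlated best with their own number. With the replicate block 0 genes passed, and 617 genes after ELS and 1492 for the difference had an unadjusted p under 0.05. Refits covered the genes that the rule named, together with Ogn, Prg4 and Thbs4, which were named after their values were seen. None changed direction in any of 1470 refits of the effect after ELS or 186 of the difference. Those genes were chosen for small p or large size in the same libraries, so a stable direction was largely set by the choice. Fos and Slc17a7, shown as checks and not among those genes, changed direction with 1 library left out (-0.26 to 0.47 and -0.05 to 0.02). So did list medians near 0, such as those of oxidative phosphorylation (-0.04 to 0.02), clock (-0.05 to 0.01), cholesterol synthesis (-0.03 to 0.04) and microglial genes (-0.04 to 0.05). List medians moved beyond the spread between libraries in 2 of 609 refits, to 0.005 for steroid receptors with surrogate variables and 0.004 for monoamine receptors without STVS library 2. Genes under 36.1 normalised reads were tested only without the filter.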

Other observations

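Genes outside the named set also separated the groups completely. With the named ones included, 18 higher (0.129%) and 25 lower (0.179%) of the 14000 genes tested did so. Among those lower after STVS were Kcnk2, a tandem-pore potassium channel (log2 fold change -0.14, SE 0.05), Alx4, a homeobox gene (-0.90, SE 0.33), and the secreted Crispld2 (-0.54, SE 0.19). Kcnk2 had a mean of 1316 normalised reads over the female PFC libraries, but Alx4 had 41.4 and Crispld2 46.4. The last 2 lie under the minimum of 50 for named genes and near the lowest mean tested, 36.1. Fmnl2, a formin that builds actin filaments (0.13, SE 0.05), and Tgfa, a ligand of the EGF receptor (0.18, SE 0.09), were higher. These 5 were picked after their values were seen, and none passed adjustment.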
